A study of Mus musculus with 12 samples.

Results

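Slc13a5, Rgs16, Upp2, Chrna4, Tm4sf20, Fam89a, Igdcc4 and Tmem25 are 8 protein-coding genes whose RNA differed strongly in mouse liver at 12 or 24 h after 2/3 partial hepatectomy, the surgical removal of most of the liver. They were taken from 17002 named genes measured in these livers, 16838 of them protein-coding. They were selected on large measured differences at 12 or 24 h, among genes outside the processes usually followed in regeneration. No numerical threshold was attached to that choice. Values at 12 and 24 h are therefore given as a description, with no test.

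The livers came from wild-type C57BL/6 males of 6 weeks of age at 0, 1.5, 12 and 24 h after the operation, with 3 mice at each time. No sham-operated animals were among the 12 samples, so the loss of tissue and the operation with its anaesthesia cannot be told apart. The labels give no clock time for the collections, so hours after surgery and clock time cannot be told apart. The labels count 3 mice a time but do not tie each array to its own mouse, so every error and p-value covers only array-to-array spread, which may be technical. RNA was taken from whole liver tissue, so fewer cells of a type and less RNA per cell cannot be told apart. The assay was a 1-colour array with probes for messenger and long noncoding RNAs.

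After partial hepatectomy the remaining hepatocytes leave quiescence, enter the cell cycle and keep up metabolism at the same time. The 8 genes encode a transporter, an enzyme, receptors and other proteins. Slc13a5 encodes the sodium-coupled citrate transporter of the hepatocyte surface, which brings citrate from blood into the cell, where citrate feeds fatty acid synthesis. Upp2 encodes uridine phosphorylase 2, a liver enzyme that splits uridine into uracil and ribose 1-phosphate. Rgs16 encodes a regulator of G protein signalling that speeds GTP hydrolysis by Gi and Gq alpha subunits. Its RNA in liver is known to follow feeding and the time of day. Chrna4 encodes the alpha 4 subunit of nicotinic acetylcholine receptors, studied mostly in brain. Tm4sf20 encodes a membrane protein of the L6 tetraspanin-like family, known in human cells as an inhibitor of the cleavage of the transcription factor CREB3L1. Igdcc4 encodes a surface receptor of the DCC and neogenin group of immunoglobulin proteins, known in mouse as a surface marker of fetal liver progenitor cells. Tmem25 encodes a transmembrane protein of the immunoglobulin superfamily, studied in mouse neurons. Fam89a encodes a protein with no role given here.

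Rgs16, Upp2 and Chrna4 were lower at both 12 and 24 h and followed each other across the arrays. Their promoters are therefore shown, as the 250 bases before the transcription start in RefSeq (mouse build GRCm38.p6), 5′ to 3′, with motif matches in capitals. The Upp2 sequence is the second of 2 RefSeq promoters, at chr2:58754934-58755183 on the plus strand, and which of them served the measured transcript was not determined. The Rgs16 promoter lies at chr1:153740103-153740352 on the plus strand and the Chrna4 promoter at chr2:181039178-181039427 on the minus strand.
Upp2: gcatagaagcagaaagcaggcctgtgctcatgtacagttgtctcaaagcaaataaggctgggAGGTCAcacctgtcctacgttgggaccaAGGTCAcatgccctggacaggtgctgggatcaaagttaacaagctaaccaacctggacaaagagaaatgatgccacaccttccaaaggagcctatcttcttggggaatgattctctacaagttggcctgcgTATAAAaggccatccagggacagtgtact
Rgs16: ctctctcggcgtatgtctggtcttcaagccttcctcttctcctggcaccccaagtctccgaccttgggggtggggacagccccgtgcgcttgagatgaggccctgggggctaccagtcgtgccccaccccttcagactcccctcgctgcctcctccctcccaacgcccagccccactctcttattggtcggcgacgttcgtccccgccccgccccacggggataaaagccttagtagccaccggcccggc
Chrna4: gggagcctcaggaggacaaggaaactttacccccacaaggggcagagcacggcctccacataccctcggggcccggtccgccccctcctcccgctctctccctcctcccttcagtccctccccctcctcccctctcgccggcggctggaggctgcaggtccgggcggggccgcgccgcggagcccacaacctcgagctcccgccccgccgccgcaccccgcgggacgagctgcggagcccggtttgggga
The capitals in Upp2 mark AGGTCA, a core element recognised by nuclear receptors, at 188 and 160 bases before the start, and TATAAA, the TATA box, at 29 bases before it. Over all 32851 promoters of the same length, 14.0% held AGGTCA and 12.4% held TATAAA on either strand. Rgs16 and Chrna4 held none of the 6 motifs searched, and neither did the other Upp2 promoter, which is not shown. The other 4 motifs were the E-box CACGTG (6.02% of all promoters), the D-box TTATGTAA (0.819%), TTCNNNGAA for STAT factors (7.02%) and GCGTG, the core bound by the aryl hydrocarbon receptor (28.2%). Elsewhere among the 8 genes GCGTG was present in the promoters of Tmem25 and Igdcc4. Tm4sf20 had no promoter in the RefSeq set used, so it was not searched. These matches are letters in a window and describe no binding. Guanine and cytosine made up 49.2% of the Upp2 stretch shown, 66.4% of that of Rgs16 and 74.4% of that of Chrna4, against a median of 52.4% over all promoters. In the other Upp2 promoter they made up 73.2%, so neither the motifs nor this share can be assigned to the measured Upp2 transcript.

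Each gene was read by 1 probe. A level is the log2 of the background-subtracted signal minus the 75th percentile of its own array, so that 0 stands for a signal equal to that percentile. A step of 1 is a 2-fold difference. Levels of different probes are not set against each other. Slc13a5, Rgs16, Upp2 and Chrna4 were called well above background on all 12 arrays, Fam89a and Tmem25 on 11, Igdcc4 on 7 and Tm4sf20 on 5. Between 62.8% and 85.4% of spots reached that call on an array, with the 4 highest shares on the 4 arrays of 1 scan (those of 1.5 h replicates 2 and 3 and 12 h replicates 1 and 2). The 24 h replicate 2 array, alone in its scan, stood apart. Its signal at the 75th percentile was 6210, against 443 to 599 on the others, and it correlated with the other 24 h arrays at r = 0.912 and 0.906 across probes, while those correlated at 0.986 with each other. All 6 hepatocyte markers were above background at every time. The median log2 difference over all 31168 probes kept was 0.16 for 1.5 h minus 0 h, 0.41 for 12 h minus 0 h, -0.15 for 24 h minus 0 h and -0.48 for 24 h minus 12 h. The differences given for the 8 genes are not shifted by these medians.

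**Figure D1:**
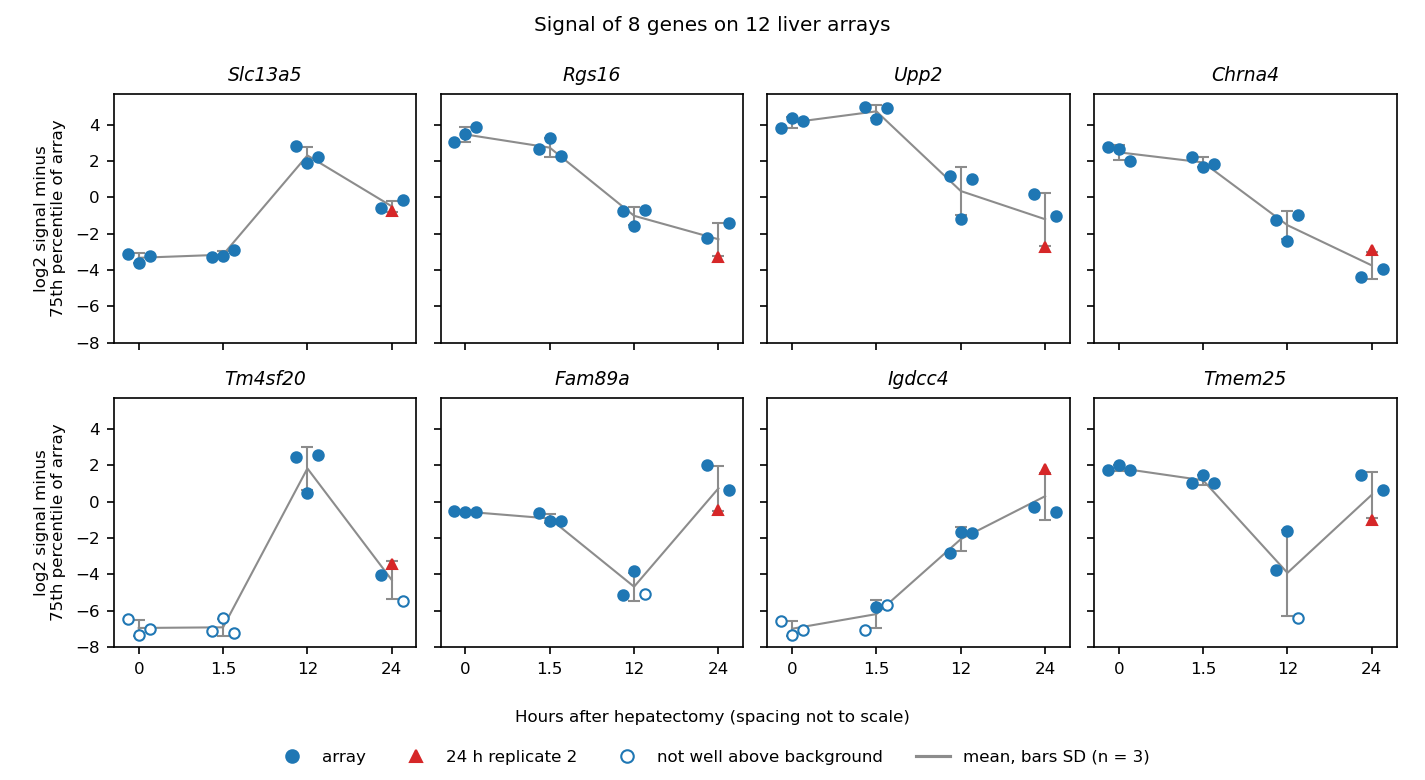
Level of each gene (log2 signal minus the 75th percentile of the array) by hours after hepatectomy, 1 point per array, with the mean and SD of 3 arrays in grey and open circles where the spot was not well above background. Slc13a5 and Tm4sf20 peak at 12 h, Rgs16, Upp2 and Chrna4 are lower at 12 and 24 h, Igdcc4 is highest at 24 h, and Fam89a and Tmem25 are lowest at 12 h. The 24 h replicate 2 array is the red triangle.

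The citrate transporter Slc13a5 was high at 12 h and part of the way back at 24 h. Its log2 levels were -3.12, -3.63 and -3.23 at 0 h, -3.29, -3.25 and -2.92 at 1.5 h, 2.84, 1.88 and 2.21 at 12 h, and -0.56, -0.75 and -0.17 at 24 h. All arrays at 12 h lay above all arrays of the other times, and those at 24 h lay between the 12 h arrays and the earlier ones without overlap. The mean was 2.31 ± 0.49 at 12 h and -3.33 ± 0.27 at 0 h (SD, n = 3 each), a difference of 5.63 (SE 0.30) or 49.7-fold. At 24 h the mean was -0.49 ± 0.29 (SD, n = 3), 7.13-fold above 0 h with a log2 difference of -2.80 from 12 h. Among arrays read in the same scan, the difference was 5.44 for 12 h minus 1.5 h (2 arrays against 2) and -2.57 for 24 h minus 12 h (2 against 1). No scan held both 0 h and a later time than 1.5 h. After normexp background correction the differences were smaller, at 3.89 for 12 h and 1.53 for 24 h against 0 h.

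No other carrier of the SLC13 family passed the threshold against 0 h at any time (adjusted p of 0.05, limma, Benjamini-Hochberg over all probes), out of 3 measured, while 17.3% of all coding genes passed at 12 h and 5.83% at 24 h. Slc13a3, a carrier of dicarboxylates, was nearest at 12 h, with a log2 difference of -1.03 (SE 0.33, adjusted p = 0.0597), and it was higher by 1.44 at 24 h than at 12 h (adjusted p = 0.0259, and 0.0574 with scan as a block). For that last comparison 13.3% of coding genes passed. At 12 h 1 of the 3 passed as lower without the 24 h replicate 2 array. In the fit that leaves out that array, 28.9% of all coding genes were higher and 20.1% lower at 12 h, and 10.2% were higher and 6.63% lower at 24 h. Most genes of a list for citrate and fatty acid synthesis, which also holds regulators and other lipid genes, were lower at both times. Of 15 measured, 11 fell and 0 rose at 12 h, against 10% of all coding genes lower and 7.23% higher. At 24 h 10 fell and 0 rose, against 2.44% lower and 3.39% higher. The list median was -2.51 at 12 h and -2.59 at 24 h, against 0.25 and -0.07 over all coding genes. Acly, the ATP citrate lyase that splits cytosolic citrate, had a mean level of 1.18 at 12 h and 5.02 at 0 h and so fell 14.3-fold (log2 -3.84, SE 0.38, adjusted p = 0.000228). Srebf1, the transcription factor that drives lipogenic genes, fell 15.5-fold at 12 h (adjusted p = 0.000556) and 17.9-fold at 24 h (adjusted p = 0.00106). Thrsp, a lipogenic protein that responds to thyroid hormone, fell 52.5-fold at 24 h (adjusted p = 0.00106). Pnpla3, a lipid droplet hydrolase, fell at least 25.8-fold at 12 h (adjusted p = 3.79e-05) and at least 23.3-fold at 24 h (adjusted p = 8.12e-05). These are bounds on this scale, because only 2 arrays at 12 h and 1 at 24 h were well above background. With scan as a block 5 of the 15 passed at 12 h and 1 at 24 h, all lower.

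Genes that respond to glucose through the factor ChREBP were mixed. Of 14 measured, 6 fell and 1 rose at 12 h, and 4 fell and 0 rose at 24 h. Over all coding genes 10% were lower and 7.23% higher at 12 h, and 2.44% lower and 3.39% higher at 24 h. The counts were 7 lower and 3 higher at 12 h, and 6 lower at 24 h, without the 24 h replicate 2 array, against 20.1%, 28.9% and 6.63% of all coding genes. The glucose transporter Slc2a2 fell 18.4-fold at 12 h (log2 -4.20, SE 0.42, adjusted p = 0.000242). Arrdc4, an arrestin-like gene, rose 13.4-fold (log2 3.75, SE 0.58, adjusted p = 0.00209) and was lower again at 24 h than at 12 h (log2 -3.00, adjusted p = 0.0152). At 24 h Mlxipl, which encodes ChREBP itself, was 4.15-fold lower than at 0 h (adjusted p = 0.0069, from 2 arrays at 24 h, since the spot of replicate 2 was an outlier and was dropped), and Pklr, liver pyruvate kinase, was 3.35-fold lower (adjusted p = 0.0356). With scan as a block 3 of the 14 passed at 12 h, all lower, and 0 at 24 h.

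The uridine-splitting enzyme Upp2 was lower at 12 h and at 24 h. Its levels were 3.81, 4.38 and 4.19 at 0 h, 4.95, 4.33 and 4.92 at 1.5 h, 1.20, -1.17 and 1.01 at 12 h, and 0.17, -2.74 and -1.04 at 24 h. Every array at 12 or 24 h lay below every array at 0 or 1.5 h, while the 12 h and 24 h arrays overlapped. The mean was 0.35 ± 1.32 at 12 h and -1.20 ± 1.46 at 24 h, against 4.12 ± 0.29 at 0 h (SD, n = 3 each). The differences from 0 h were -3.77 and -5.33 (SE 0.73), or 13.7-fold and 40.1-fold lower. Without 12 h replicate 2 the 12 h difference was -3.02, and for 24 h it was -4.56 without 24 h replicate 2 and -6.01 without 24 h replicate 1. Within a scan, 12 h minus 1.5 h was -4.61 and 24 h minus 12 h was -1.45.

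In the rest of pyrimidine salvage and breakdown, of 15 measured genes 2 rose and 1 fell at 12 h, and 1 rose and 0 fell at 24 h. These counts are near the 17.3% of all coding genes that passed at 12 h and the 5.83% at 24 h. Cda, which deaminates cytidine to uridine, rose 4.45-fold at 12 h (log2 2.15, SE 0.35, adjusted p = 0.00242) and 4.65-fold at 24 h (adjusted p = 0.00584). Uck2, a kinase that returns uridine to the nucleotide pool, rose 3.13-fold at 12 h (adjusted p = 0.00644). Slc29a1, a nucleoside transporter of the cell surface, fell 4.85-fold at 12 h (adjusted p = 0.000742) and was higher at 24 h than at 12 h (log2 1.84, adjusted p = 0.00674). In pyrimidine synthesis 1 of 9 genes rose at 12 h, the CTP synthase Ctps (2.80-fold, adjusted p = 0.0391), and 0 passed at 24 h. None of these calls against 0 h held with scan as a block. Without the 24 h replicate 2 array, 5 salvage genes were higher and 2 lower at 12 h, as were 2 and 1 synthesis genes, in a fit where 28.9% of all coding genes were higher and 20.1% lower.

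Rgs16 was lower at 12 h and lower still in its mean at 24 h. It stood at 3.03, 3.50 and 3.86 at 0 h, 2.65, 3.28 and 2.28 at 1.5 h, -0.76, -1.58 and -0.70 at 12 h, and -2.22, -3.26 and -1.43 at 24 h. The 12 and 24 h arrays were all below the 0 and 1.5 h arrays, and 12 and 24 h overlapped by 1 array at each time. The mean was -1.01 ± 0.49 at 12 h and -2.30 ± 0.92 at 24 h, against 3.46 ± 0.42 at 0 h (SD, n = 3 each). These are log2 differences of -4.48 and -5.77 (SE 0.47), or 22.3-fold and 54.5-fold lower, and normexp gave -3.82 at 12 h. The 24 h difference ranked 3 from the lowest of the 16838 coding genes. Within a scan the difference was -3.95 for 12 h minus 1.5 h and -1.12 for 24 h minus 12 h.

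Other genes of the RGS family were mostly not past the threshold. Of 15 measured, 2 fell and 0 rose at 12 h, and 2 fell and 0 rose at 24 h. Of all coding genes 10% were lower and 7.23% higher at 12 h, and 2.44% lower and 3.39% higher at 24 h. Rgs3 was 4.67-fold lower at 12 h (log2 -2.22, SE 0.30, adjusted p = 0.00101) and 3.54-fold lower at 24 h (adjusted p = 0.00788). Rgs10 was 2.18-fold lower at 12 h (adjusted p = 0.0117) and Rgs7 3.10-fold lower at 24 h (adjusted p = 0.0177). Without the 24 h replicate 2 array 5 of the 15 were higher and 2 lower at 12 h, against 28.9% and 20.1% of all coding genes, and 1 higher and 4 lower at 24 h, against 10.2% and 6.63%. Among 12 G protein alpha subunits, the proteins on which RGS proteins act, Gnao1 rose 3.26-fold (adjusted p = 0.00749) and Gna11 fell 2.08-fold (adjusted p = 0.0127) at 12 h, and 0 passed at 24 h. Without that array 2 subunits were higher and 3 lower at 12 h, and 1 was higher at 24 h, against the same shares. With scan as a block Rgs3 still passed at 12 h (adjusted p = 0.00796), and the other calls of these RGS and G protein genes against 0 h ended.

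Chrna4 was lower at 12 h and lower again at 24 h. Its levels were 2.76, 2.65 and 2.02 at 0 h, 2.22, 1.70 and 1.84 at 1.5 h, -1.24, -2.40 and -0.95 at 12 h, and -4.37, -2.90 and -3.97 at 24 h. The 24 h arrays all lay below the 12 h arrays, and these below every array at 0 and 1.5 h. The mean was -1.53 ± 0.76 at 12 h and -3.74 ± 0.76 at 24 h, against 2.48 ± 0.40 at 0 h (SD, n = 3 each). The differences from 0 h were -4.01 and -6.22 (SE 0.46), or 16.1-fold and 74.8-fold lower, and the 24 h difference was the lowest of the 16838 coding genes. The difference for 24 h minus 12 h was -2.21, and -3.21 within the scan that held both times (2 arrays against 1). Against 0 h, normexp background correction gave -2.98 at 12 h and -4.61 at 24 h, while scan as a block gave -7.06 at 24 h.

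No other nicotinic receptor subunit passed the threshold against 0 h, out of 13 measured, while 17.3% of all coding genes passed at 12 h and 5.83% at 24 h. Chrnd, the delta subunit of the muscle receptor, came nearest at 12 h, as brighter than at 0 h with an adjusted p of 0.108. That p was 0.196 with scan as a block and 0.00243 without the 24 h replicate 2 array. Chrnd was well above background on 2 of 3 arrays at 12 h and 0 of 3 at 0 h, so no bound is given. At 24 h the nearest was Chrne, the epsilon subunit (adjusted p = 0.121). It was well above background on 1 of 3 arrays at 0 h and 0 of 3 at 24 h, so no difference is given. For 24 h against 12 h, Chrna6, another alpha subunit, was lower (log2 -1.88, adjusted p = 0.0484). The difference was -1.13 without the 24 h replicate 2 array and -0.62 with scan as a block (adjusted p = 0.133). In the fit without that array 6 of the 13 passed as higher at 12 h and 1 at 24 h, against 28.9% and 10.2% of all coding genes.

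Tm4sf20 was bright at 12 h, dim at 24 h and not well above background before. Its levels were -6.48, -7.34 and -7.03 at 0 h and -7.09, -6.39 and -7.25 at 1.5 h, none of them well above background. They were 2.44, 0.49 and 2.56 at 12 h, all well above background, and -4.01, -3.44 and -5.47 at 24 h, of which the third was not. The 12 h arrays stood apart from all others, and the 24 h arrays lay above the 0 h arrays. The mean was 1.83 ± 1.16 at 12 h and -4.31 ± 1.05 at 24 h, against -6.95 ± 0.44 at 0 h (SD, n = 3 each). Since no array at 0 h measured it, a bound is given for 12 h. On this scale Tm4sf20 was at least 105-fold higher at 12 h, which normexp, given below, did not keep. For this bound each 0 h array is given the dimmest normalized signal that it still called well above background. With the same floor at 0 h, Tm4sf20 was 1.49-fold higher at 24 h. This is no bound, because the third array at 24 h was not well above background either. With that array raised to its floor too, the value was 1.77-fold, and normexp turned the direction. For 24 h minus 12 h the difference of measured means was -6.14 (SE 0.62), with 2 of 3 arrays at 24 h above background, and it was -5.89 with the third raised to that dimmest signal, so Tm4sf20 was at least 59.3-fold lower on this scale, while normexp gave -4.18. Without 12 h replicate 2 it was -6.81. With the same floor and on the same scale, the bounds within a scan were at least 188-fold higher for 12 h against 1.5 h and at least 122-fold lower for 24 h against 12 h. By measured means, normexp background correction gave 3.96 for 12 h against 0 h and turned the 24 h difference to -0.23, and scan as a block gave 0.84 at 24 h. Without 12 h replicate 2 the 12 h difference of measured means was 9.45 in place of 8.78.

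The 4 other L6 tetraspanin-like genes measured were not past the threshold at 12 h, and 1 was at 24 h, against 17.3% and 5.83% of all coding genes. Tm4sf5 had a log2 difference of 1.11 (adjusted p = 0.132), and 2 of the 4 passed as higher without the 24 h replicate 2 array, as did 28.9% of all coding genes. Tm4sf4, a family member made in liver, was 3.22-fold higher at 24 h than at 0 h (log2 1.68, SE 0.39, adjusted p = 0.0319) and 4.01-fold higher than at 12 h (adjusted p = 0.015). Tm4sf5 was lower at 24 h than at 12 h (log2 -1.68, adjusted p = 0.0438, and 0.0662 without that array). With scan as a block the Tm4sf4 and Tm4sf5 calls ended (adjusted p = 0.306 for Tm4sf4 at 24 h against 0 h).

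The receptor gene Igdcc4 was well above background on only 1 array before 12 h and was brightest at 24 h. Its levels were -6.56, -7.36 and -7.06 at 0 h, none well above background, and -7.07, -5.78 and -5.70 at 1.5 h, where replicate 2 alone had the call. At 12 h they were -2.84, -1.64 and -1.71, and at 24 h -0.31, 1.78 and -0.56, all well above background. Each time from 12 h on lay fully above the times before it. The mean was -2.06 ± 0.67 at 12 h and 0.30 ± 1.29 at 24 h, against -6.99 ± 0.40 at 0 h (SD, n = 3 each). On this scale the bounds were at least 7.05-fold higher at 12 h and at least 36.3-fold higher at 24 h, while normexp, given below, was lower. For 24 h minus 12 h the difference was 2.36 (SE 0.62), or 5.15-fold. Without 24 h replicate 2 it was 1.63, and the difference of measured means from 0 h was 6.55 in place of 7.29. Within a scan it was 3.50 for 12 h minus 1.5 h, where 1 of the 2 arrays at 1.5 h was well above background, and 1.27 for 24 h minus 12 h. By measured means against 0 h, normexp gave 1.69 at 12 h and 3.07 at 24 h, and scan as a block gave 3.42 and 4.69.

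Within the DCC and neogenin receptor group and its ligands 0 of 11 genes passed at 12 h, and 1 passed as lower at 24 h. Of all coding genes 17.3% passed at 12 h and 5.83% at 24 h. The gene that passed was Robo2, a receptor for Slit guidance proteins (adjusted p = 0.0169), which was not well above background on any array at 24 h or 0 h, so no difference is given. At 12 h 1 gene of the group was higher and 1 lower without the 24 h replicate 2 array, against 28.9% and 20.1% of all coding genes. Hjv, the iron-regulating protein hemojuvelin of the same ligand family, came nearest at 12 h (log2 -0.99, adjusted p = 0.0719, and 0.0254 without that array). Igdcc3, the closest relative of Igdcc4 and its neighbour on chromosome 9, had log2 differences of -1.77 at 12 h (adjusted p = 0.192) and -2.61 at 24 h (adjusted p = 0.121).

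Tmem25 and Fam89a shared a trough at 12 h. Tmem25 had levels of 1.76, 2.03 and 1.76 at 0 h, 1.02, 1.48 and 1.03 at 1.5 h, -3.75, -1.62 and -6.38 at 12 h, and 1.49, -0.98 and 0.63 at 24 h. The third 12 h array was not well above background, and the spread at that time was the widest of any time for the 8 genes. The 12 h arrays lay below all others, and the 24 h arrays below the 0 h arrays. The mean was -3.92 ± 2.39 at 12 h and 0.38 ± 1.25 at 24 h, against 1.85 ± 0.15 at 0 h (SD, n = 3 each). Its difference at 12 h was -5.77 (SE 0.97), with -6.92 without 12 h replicate 2 and -4.53 without 12 h replicate 3. With 12 h replicate 3 raised to the dimmest signal its array called well above background, it was -5.08, at least 33.7-fold lower on this scale, while normexp gave -3.36. For 24 h minus 12 h the difference was 4.30 by measured means and 3.61 with that floor, at least 12.2-fold higher on this scale, while normexp gave 1.93. Leaving out 1 array gave 5.45 without 12 h replicate 2, 3.06 without 12 h replicate 3 and 4.98 without 24 h replicate 2. Within a scan 12 h minus 1.5 h was -3.94. The scan that held 12 and 24 h has only 12 h replicate 3 at 12 h, so there 24 h was at least 41.3-fold higher on this scale. The 24 h difference from 0 h was -1.47, or -0.79 without 24 h replicate 2, but 2.67 with scan as a block, a turn of direction in a fit that ties 24 h to the earlier times through that unmeasured array.

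Fam89a stood at -0.52, -0.54 and -0.58 at 0 h, -0.61, -1.08 and -1.08 at 1.5 h, -5.14, -3.80 and -5.10 at 12 h, and 2.01, -0.46 and 0.66 at 24 h. The 12 h arrays lay below all others, and the third of them was not well above background. The 24 h arrays lay above those at 0 h, with 24 h replicate 2 closest to them. The mean was -4.68 ± 0.76 at 12 h and 0.74 ± 1.24 at 24 h, against -0.55 ± 0.028 at 0 h (SD, n = 3 each). That made a difference of -4.13 (SE 0.55) at 12 h by measured means and -3.87 with the third array at its floor, at least 14.6-fold lower on this scale, and -3.45 with scan as a block. At 24 h the difference was 1.28, or 2.43-fold higher. The 24 h value was 0.64 without 24 h replicate 1 and 1.88 without 24 h replicate 2. For 24 h minus 12 h the difference was 5.41 by measured means and 5.15 with the floor, at least 35.5-fold higher on this scale, with 4.77 without 24 h replicate 1 and 6.01 without 24 h replicate 2. Within a scan 12 h minus 1.5 h was -3.38, and 24 h minus 12 h was at least 5.64 with the floor, since the only 12 h array there was the unmeasured one. Normexp gave -1.48 for 12 h minus 0 h and 2.51 for 24 h minus 12 h, and scan as a block, through the same array, gave 2.99 for 24 h minus 0 h. The related gene Fam89b had a log2 difference of -0.70 at 12 h (adjusted p = 0.196) and -0.16 at 24 h (adjusted p = 0.825). Without the 24 h replicate 2 array Fam89b passed as lower at 12 h, and its 24 h difference turned to 0.26 (adjusted p = 0.481).

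For all 8 genes the 12 h arrays did not overlap the 0 h arrays, against 62% of all coding genes. The same held for all 8 at 24 h, against 29%. These counts follow from how the genes were chosen. Of 16838 coding genes, 121 (0.719%) were at least 4-fold lower at both 12 and 24 h than at 0 h, among them Rgs16, Upp2 and Chrna4. At least 4-fold higher at both times were 172 (1.02%), by measured means, among them Slc13a5 and Igdcc4. Tm4sf20 was also among these by measured means, but with its 0 h arrays at their floor it was only 1.49-fold higher at 24 h. A peak at 12 h, at least 4-fold above 0 h and above 24 h, was seen for 90 genes (0.535%), Slc13a5 and Tm4sf20 among them. A trough of the same size was seen for 152 (0.903%), Fam89a and Tmem25 among them.

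**Figure D2:**
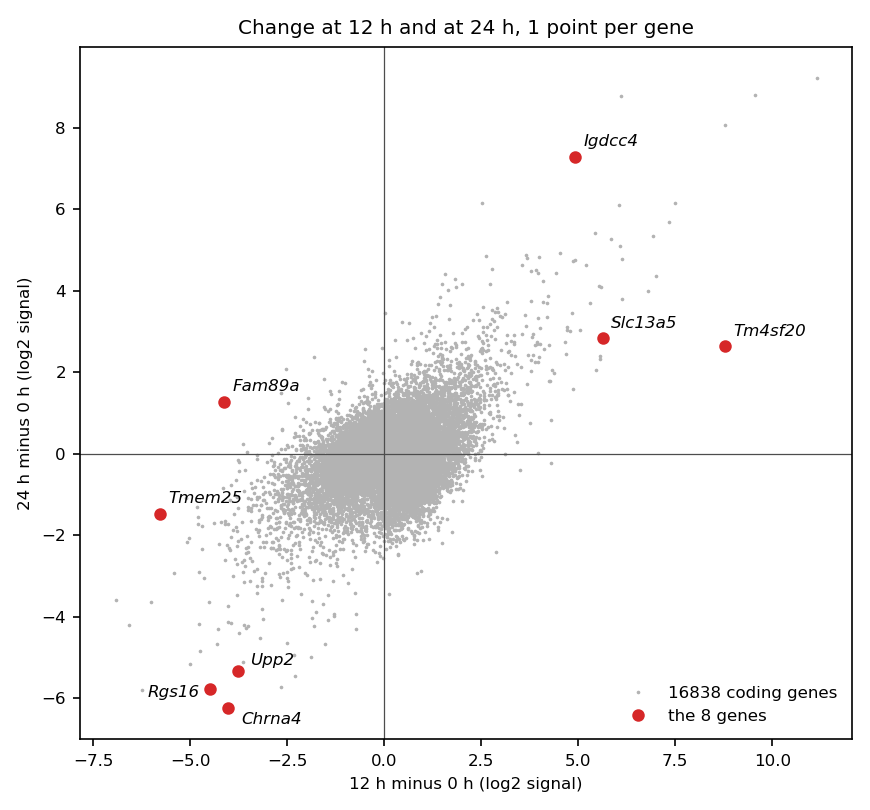
Log2 difference of 12 h minus 0 h (horizontal) against 24 h minus 0 h (vertical) for 16838 coding genes, grey, and the 8 genes, red, by measured means. Tm4sf20 at 12 h and Igdcc4 at both times are therefore plotted above their bounds, and Tm4sf20 has no bound at 24 h. Both axes share the 0 h arrays. Rgs16, Upp2 and Chrna4 lie at the lower left, Igdcc4 at the upper right, and Fam89a at the upper left.

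At 1.5 h Slc13a5, Rgs16, Upp2, Chrna4, Fam89a and Tmem25 were tested, since the rule of choice names only 12 and 24 h, although the same 0 h arrays enter. Tm4sf20 and Igdcc4 were dim at both times and passed the filter through 12 and 24 h, so no difference is read for them. None of the 6 passed, with adjusted p between 0.784 and 0.877, and 7 of all 31168 probes passed (0.0225%). By unadjusted p none of the 6 was under 0.05, against 1999 of all probes. The largest log2 differences were -0.73 for Rgs16 (SE 0.47), -0.67 for Tmem25 (SE 0.97) and 0.61 for Upp2 (SE 0.73). These SEs pool the spread of all times, so the spread at 12 and 24 h weighs on the 1.5 h test. For Tmem25 the SD was 0.15 at 0 h and 0.26 at 1.5 h, against 2.39 at 12 h and 1.25 at 24 h. For Fam89a it was 0.028 and 0.27, against 0.76 and 1.24. With only the 2 groups fitted, 0 of all probes passed. Fam89a and Tmem25 were lower on every 1.5 h array than on every 0 h array. Of all probes 25.7% were separated as fully one way or the other, so 2 of 6 is near the background.

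Across the 12 arrays some of the genes were correlated. The correlations are descriptions, since the arrays share their times and their scaling. Arrays not well above background enter them, since Igdcc4 had that call on only 7 of the 12 arrays and Tm4sf20 on 5. Slc13a5 and Tm4sf20 had r = 0.958 over the 12 arrays. Rgs16 had r = 0.949 with Upp2 and 0.945 with Chrna4, and ran opposite to Igdcc4 at r = -0.979. Fam89a and Tmem25 had r = 0.843, and Tm4sf20 and Tmem25 ran opposite at -0.925. Without the 24 h replicate 2 array these values were 0.957, 0.934, 0.955, -0.975, 0.868 and -0.926 in the same order.

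Coding genes among the 3 most like each of the 8, by Pearson r over the 12 arrays among 16530 genes, are named as a description of shape. Their order depended on the arrays and the scaling. Arrays not well above background enter these r values too, as for Tm4sf20, with the call on 5 arrays, and Htra4, with the call on 7. Nearest to Slc13a5 were Syt12, a synaptotagmin (r = 0.989), Clba1 and Rfxank, a subunit of the factor that activates MHC class II genes. Syt12 had a log2 difference of 5.55 at 12 h and 2.40 at 24 h against 0 h. Close to Tm4sf20 were Tacc1 (r = 0.973) and Sntb2 (r = 0.972), and Sntb2 had differences of 2.15 at 12 h and 0.72 at 24 h. Rgs16 was most like Dbp, the D-box binding factor of the clock (r = 0.972), followed by Pbx4 and Echdc1, but Dbp ranked 4 without the 24 h replicate 2 array and 17 under quantile normalization. Upp2 was most like Bdh2, a cytosolic dehydrogenase (r = 0.985), with Fdx1, an electron carrier of mitochondrial cytochromes P450, next. Bdh2 ranked 6 without that array and 3 under quantile normalization. Chrna4 was most like Acacb, the mitochondrial acetyl-CoA carboxylase (r = 0.967), Htra4 and the carbonic anhydrase Car1, and Acacb ranked 6 without that array.

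Igdcc4 was most like Cerkl (r = 0.986), Lrfn3 and Clpx, the unfoldase of a mitochondrial protease. Cerkl was well above background on only 6 arrays and Igdcc4 on 7, so unmeasured values of both enter this r. Clpx had log2 differences of 1.44 at 12 h and 2.26 at 24 h. Fam89a was most like Enho, which encodes the secreted peptide adropin (r = 0.984), Myorg and the mitochondrial ribosomal gene Mrpl55. Enho had differences of -2.30 at 12 h and 0.91 at 24 h. Tmem25 was most like Epor, the erythropoietin receptor (r = 0.976), Syne2 and Rab3ip, and Epor had differences of -2.63 at 12 h and -0.69 at 24 h. Epor ranked 8 without the 24 h replicate 2 array and 28 under quantile normalization.

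**Figure D3:**
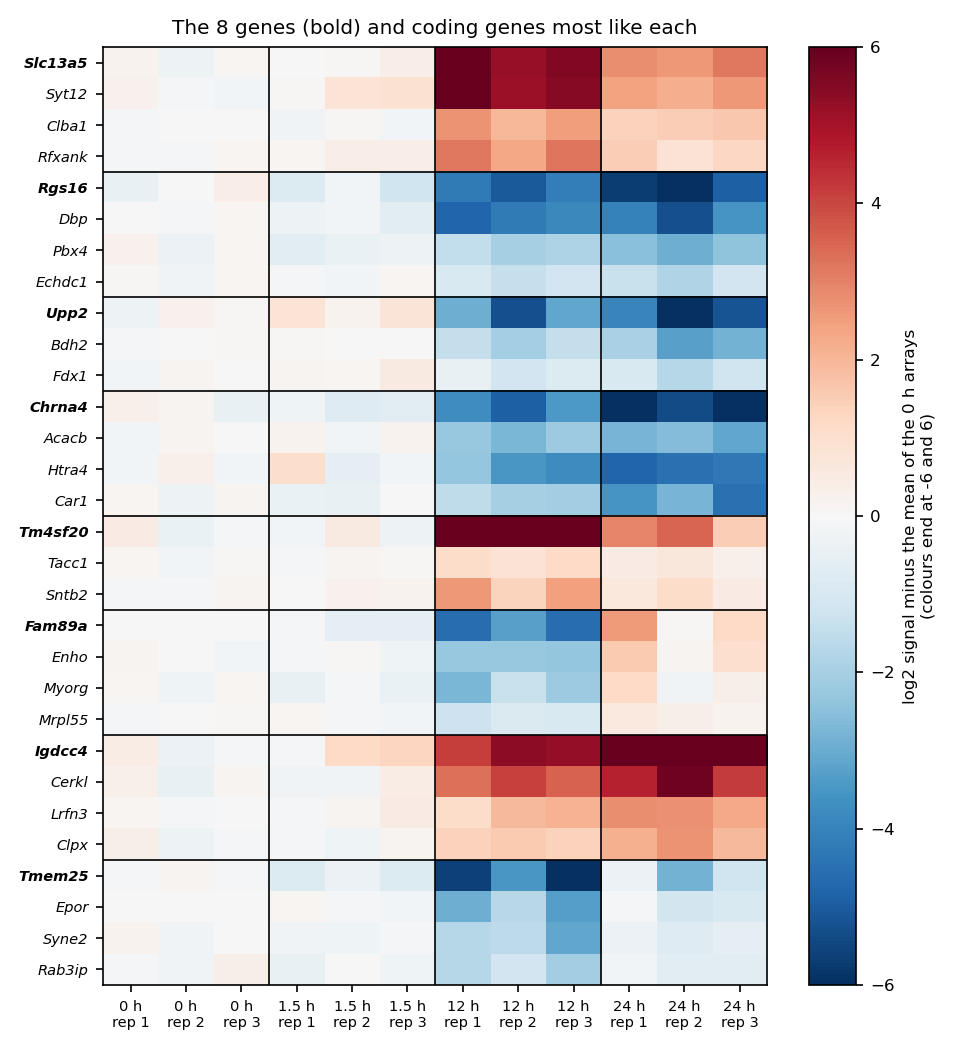
Log2 signal minus the mean of the 0 h arrays (colour) for each of the 8 genes, in bold, and the 2 or 3 coding genes named as most like it, in rows, on the 12 arrays, in columns. Slc13a5 and Syt12 reach over 5 at 12 h, and the neighbours of Rgs16, Upp2 and Chrna4 are lower at 12 and 24 h by smaller mean amounts than these 3 genes.

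Because Rgs16 and Dbp are both known to follow the time of day, the clock genes are given beside them. Of 19 measured, 9 fell and 4 rose at 12 h, and 9 fell and 3 rose at 24 h, against 10% lower and 7.23% higher of all coding genes at 12 h and 2.44% lower and 3.39% higher at 24 h. Dbp was 19.6-fold lower at 12 h (log2 -4.29, SE 0.41, adjusted p = 0.000175) and again 19.6-fold lower at 24 h (adjusted p = 0.00037). Usp2, a clock-controlled deubiquitinase, was 23.0-fold lower at 12 h (adjusted p = 1.57e-05) and 12.3-fold lower at 24 h (adjusted p = 0.000173). Wee1, a mitotic kinase under clock control, was 13.6-fold lower at 12 h (adjusted p = 0.000452). Arntl, the clock activator BMAL1, was 11.1-fold higher at 24 h (log2 3.47, SE 0.39, adjusted p = 0.00106). With scan as a block 6 passed at 12 h and 1 at 24 h, all lower. The part of the clock in the values of the 8 genes was not tested.

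**Figure D4:**
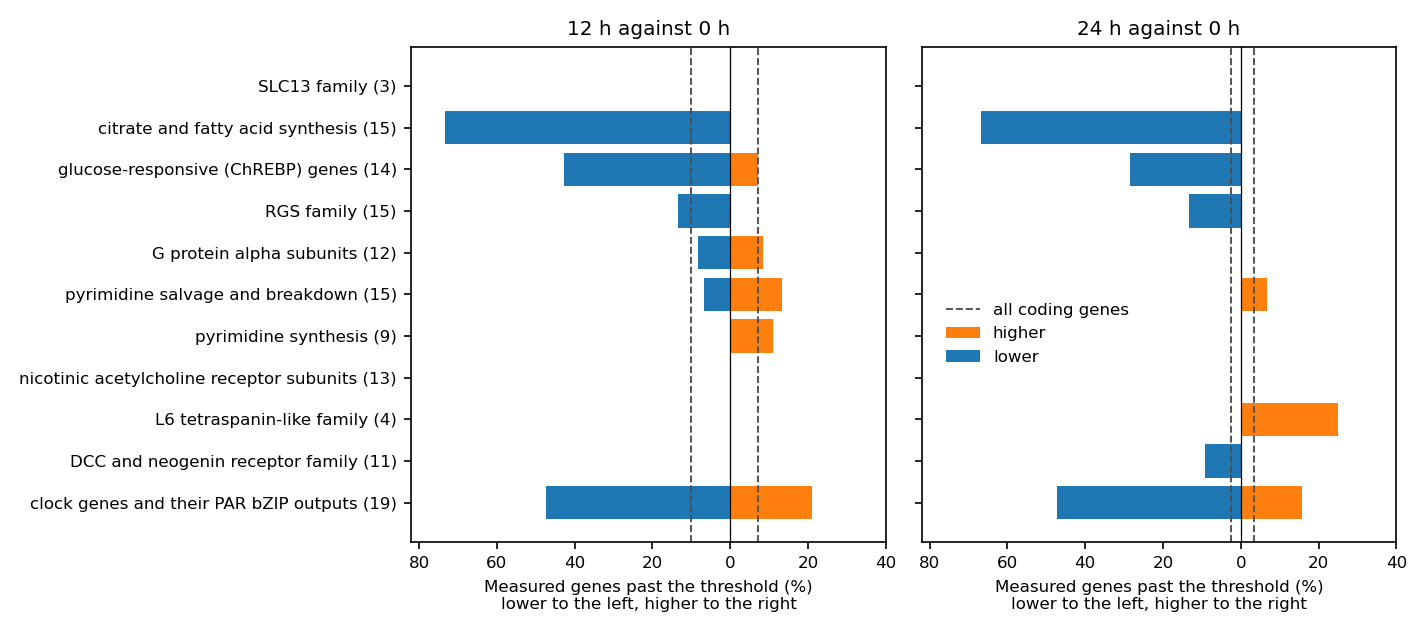
Share of measured genes past the threshold (%) in each list, to the left for lower and to the right for higher, at 12 h and at 24 h against 0 h, with the number measured in brackets and dashed lines for all coding genes. The lists exclude the 8 genes. Citrate and fatty acid synthesis has the longest bars, all lower, and the SLC13 and nicotinic receptor families have none at either time.

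Markers of other cells also moved over these times. Their counts are to be read against the 7.23% of all coding genes higher and 10% lower at 12 h, and 3.39% higher and 2.44% lower at 24 h. Neutrophil markers had a summed signal, in multiples of the 75th percentile of the array, of 1.43 to 1.95 at 0 h, 7.20 to 9.74 at 1.5 h, 28.2 to 34.2 at 12 h and 24.2 to 33.6 at 24 h, and 3 of 5 passed as higher at both 12 and 24 h. Adipose markers stood at 0.394 to 0.63 at 0 h, 0.579 to 0.844 at 1.5 h, 2.58 to 4.38 at 12 h and 4.05 to 4.70 at 24 h, with 4 of 5 higher at 12 h and 2 at 24 h. Only 2 of the 5 were well above background on any array at 0 h, so some of these calls rest on unmeasured values at 0 h. Hepatocyte markers stood at 759 to 841 at 0 h, 915 to 1370 at 1.5 h, 788 to 1379 at 12 h and 417 to 598 at 24 h. Markers within these lists differed from each other. Among neutrophil markers S100a9 had a mean level of 4.46 at 12 h and 4.33 at 24 h, against -0.41 at 0 h, while Mpo had -1.59 and -3.09, against -2.73, and Elane -0.82 and -1.59, against -1.11. Among adipose markers Fabp4 had 1.40 at 12 h and 1.93 at 24 h, against -1.54 at 0 h, and Adipoq -2.88 and -3.86, against -3.60. Among hepatocyte markers Alb had 7.23 at 24 h and 8.19 at 0 h, Cps1 5.51 (2 arrays, with the outlier spot of 24 h replicate 2 dropped) and 4.98, and Hnf4a 6.35 and 6.49, and 1 of 6 passed as lower at each of 12 and 24 h. Intestine markers stood at 19.5 to 23.9 at 0 h, 19.1 to 26.8 at 1.5 h, 21.1 to 32.4 at 12 h and 31.0 to 34.7 at 24 h, and their defining factor Cdx2 was never well above background. Of the 3 intestine markers kept, 1 was lower at 12 h and 0 passed at 24 h. Neuron markers stood at 5.12 to 6.74 at 0 h, 5.10 to 6.32 at 1.5 h, 5.63 to 7.01 at 12 h and 1.76 to 5.74 at 24 h, with 1 of 6 lower at each of 12 and 24 h. Macrophage markers stood at 15.0 to 28.0 at 0 h, 18.6 to 34.1 at 1.5 h, 17.8 to 33.6 at 12 h and 35.0 to 53.0 at 24 h, with 1 of 6 higher and 2 lower at 12 h and 1 higher at 24 h. Bile duct markers stood at 16.5 to 27.3 at 24 h and 12.9 to 15.0 at 0 h, with 1 of 5 higher at each of 12 and 24 h. The neutrophil, adipose, macrophage, intestine, bile duct and endothelial sums at 24 h all lay above those at 0 h. Hepatocyte sums at 24 h all lay below those at 0 h. The stellate, pancreas, neuron and muscle sums overlapped between 24 h and 0 h. Of single coding genes 29% did not overlap between these times. Markers within these lists differed too. Marco of macrophages had a mean level of 4.54 at 24 h and 1.65 at 0 h, while Csf1r had 2.60 and 2.85, and Clec4f -0.75 and -0.08. Lyve1 of endothelial cells had 1.59 and -1.16, and Kdr 1.38 and 2.05. Sox9 of bile duct had 0.10 and -1.96, and Epcam -2.29 and -1.71. Endothelial markers stood at 20.2 to 23.0 at 24 h and 16.4 to 18.9 at 0 h, with 1 of 6 passing each way at 12 h and 1 higher at 24 h. Stellate markers stood at 5.94 to 7.29 at 0 h, 4.16 to 7.98 at 1.5 h, 2.27 to 3.16 at 12 h and 4.28 to 9.17 at 24 h. The stellate sums at 12 h thus all lay below those at 0 h. Among stellate markers 1 of 6 was lower at 12 h and 0 passed at 24 h, and 1 of 7 pancreas and 1 of 4 measured muscle markers were higher at 12 h and 0 passed at 24 h. The part of these cells in the values of the 8 genes was not tested.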

How the data were processed

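Liver RNA of 12 mice was read on 1-colour Agilent arrays. The spots were quantified with Agilent Feature Extraction 10.5.1.1, per the file headers. The deposited raw files give a background-subtracted processed intensity per spot, the spot and local background signals and a call of well above background. The authors also deposited log2 values for 20271 probes, with column medians of 8.91 to 8.94 and r of at least 0.993 with the log2 processed intensity. Their normalization and centring are not given in the sources used here, so they served as an alternative. Of 39448 spots 37831 were not controls, for 37246 probes. Spots marked as outliers and a set of 20 negative-control probes were dropped, spots of 1 probe were averaged, and the 75th percentile of the array was subtracted after log2. Probes well above background on at least 3 of 12 arrays were kept (31168). No spot was saturated. Where some arrays of a group were not well above background, bounds with these raised to their array's floor were added after seeing the values. Names came from RefSeq accessions in a mouse gene table (22216 probes matched), and no coordinates of probes are given. A gene with several probes kept was read by the brightest of them alone, also in the shares of all coding genes. Such genes include Rgs3 and Usp2, with 3 probes kept, and Arrdc4, Pklr, Gnao1 and Fam89b, with 2. Values of their other probes are not given.

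A limma 3.58.1 model (R 4.3.3) with 1 mean per time was fitted to all arrays, with two-sided tests and Benjamini-Hochberg adjustment over all probes at 0.05, and was checked on simulated data. The spread of the 24 h replicate 2 array enters every contrast. A scan is the set of arrays that share a time stamp in the file headers (4 scans). Replicate numbers did not pair the samples: of 18 same-numbered pairs, r of their deviations ran from -0.42 to 0.41, with 2 over 0.1.

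The members and lists were chosen with earlier results of these data known, so the lists give no independent support. Genes named besides the 8 are the 3 most like each, up to 3 list genes past the threshold per contrast against 0 h (up to 2 otherwise, or the one nearest where none passed) and the nearest gene on each side; some of these are not reported here. Of 141 list entries 131 were measured. Alternatives were normexp background correction (offset 50), quantile normalization, the authors' values, other filters on dim probes, robust moderation, only the groups compared, replicate and scan blocks, and leaving out each array.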

Additional observations from a re-analysis of the deposited data

How the results depend on the processing

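The 8 genes had 24 distinct differences at 12 or 24 h. Under normexp 15 of the 24 changed direction or moved by over 1 SD, as did 11 with scan as a block. Several other settings, such as no filter on dim probes, keep the group means and cannot move a difference. The same holds for leaving out an array of a time not compared, so the 480 values recomputed in all are no measure of stability. Among them 2 changed direction and 24 more moved by over 1 SD. The 2 were Tm4sf20 at 24 h minus 0 h, -0.23 under normexp, and Tmem25 at 24 h minus 0 h, 2.67 with scan as a block. At 1.5 h 0 of 160 recomputed differences passed the threshold and 11 changed sign. Slc13a5 was then -0.11 with the authors' values, -0.21 under normexp and -0.11 under quantile normalization. Tm4sf20 was -0.40 under normexp, -0.030 under quantile normalization, -0.14 with scan as a block and, with 1 array left out, from -0.22 (without 1.5 h replicate 2) to 0.27 (without 0 h replicate 1), with -0.16 and -0.0056 without 0 h replicates 2 and 3. Igdcc4 was -0.24 under normexp and -0.081 with scan as a block. Tm4sf20 and Igdcc4 were near background at 0 and 1.5 h, so their signs there have no reading. The cause of these turns was not tested.

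Counts of probes past the threshold depended on the setting. At 1.5 h 7 passed, against 20 with the authors' values, 1 under normexp, 0 with only the 2 groups fitted, 15 with robust moderation, 24 with scan as a block and 17 with the filter for all 12 arrays. At 12 h 4774 passed, against 657 under normexp, 15491 with only the 2 groups and 1301 with scan as a block. For 24 h against 0 h 1698 passed, against 183, 119 and 83 in the same order. For 24 h against 12 h 3986 passed, against 2584 with no filter, 175 under normexp and 0 with only the 2 groups, where limma's fit of all arrays had 12515 at an unadjusted p under 0.05. With the replicate number as a block the counts were 0, 3607, 1161 and 1277, and no call of the 8 genes at 1.5 h changed. Leaving out 1 array gave 0 to 177, 2256 to 15269, 415 to 5302 and 397 to 10647, with the first 3 upper ends without 24 h replicate 2 and the last without 24 h replicate 3. The number of arrays and, for Tm4sf20 and Igdcc4 before 12 h, signals near background limit the precision.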

Other observations

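The nearest protein-coding genes on each side of the 8 genes were read in the order of a RefSeq gene table (GRCm38.p6, used for order alone). Of 16 neighbours 11 were measured, and 1 passed the threshold in any comparison, while of all coding genes 17.3% passed for 12 h minus 0 h, 5.83% for 24 h minus 0 h and 13.3% for 24 h minus 12 h. That was Mff, a mitochondrial fission factor beside Tm4sf20, which was higher at 24 h than at 0 h (mean levels 1.03 and 0.17, log2 difference 0.86, SE 0.22, adjusted p = 0.0467 in limma). Agfg1, on the other side of Tm4sf20, had log2 differences of -0.02 at 12 h and 0.13 at 24 h. Rgs8, beside Rgs16, was not well above background on any array at 0 h, so no difference is given, and its adjusted p at 12 h was 0.262, or 0.017 without the 24 h replicate 2 array.

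Acvr1, an activin receptor gene that overlaps Upp2 in the table, had differences of -0.43 at 12 h (adjusted p = 0.277) and 0.29 at 24 h (adjusted p = 0.568). Arv1, which overlaps Fam89a, had 0.15 at 12 h (adjusted p = 0.804) and 0.19 at 24 h. Ttc36, which overlaps Tmem25, had -0.94 at 12 h (adjusted p = 0.398, and 0.0347 without the 24 h replicate 2 array) and -1.55 at 24 h (adjusted p = 0.286). Ift46, on the other side of Tmem25, had 0.16 at 12 h. Dpp8, beside Igdcc4, had 0.36 at 12 h and 0.78 at 24 h (adjusted p = 0.104).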
